A study of Salmo salar with 72 samples.

Results

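The gene row described here is ENSSSAG00000113886, annotated as nup93 on chromosome 16 of Atlantic salmon (Salmo salar), 1 of 69389 genes in the count files. It was chosen by its DI values, since the study names it among the genes that differed between diets in the distal intestine (DI), and its DI differences from the fishmeal diet are therefore given below as a description, without a test. Atlantic salmon smolts were fed for 42 days in seawater, and DI and spleen were taken from the same 36 fish, 6 per diet, from 2 fish in each of 3 tanks per diet. The reference diet was Fishmeal (FM), and the other 5 diets all held 30% soybean meal. By the study's formulation, these 5 also held less fishmeal, wheat gluten and potato starch than FM, no cellulose, and added phosphate, lysine and methionine. Soybean meal and these other changes cannot be told apart in a comparison with FM. SBM was soybean meal with no yeast. ICJ and IWA added inactivated (spray-dried) yeast, Cyberlindnera jadinii and Wickerhamomyces anomalus respectively, and ACJ and AWA added the same yeasts after autolysis. By the same formulation, the yeast diets also held less fishmeal, wheat gluten and potato starch than SBM. Yeast and these reductions cannot be told apart in a comparison with SBM. The labels do not say which fish shared a tank, and no diet was fed with yeast but without soybean meal.

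NUP93 is a scaffold subunit of the inner ring of the nuclear pore complex, the channel through the nuclear envelope, and every nucleated cell needs it. Salmonids went through a whole-genome duplication, and many of their genes are kept as copies on different chromosomes. The span also involves genes of other kinds. Metallothioneins are small cysteine-rich proteins that bind zinc and copper and are induced by these metals, and BBS2 is a subunit of the BBSome, which carries membrane proteins to cilia.

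The nup93 row ran from 31777023 to 31820746 on the plus strand of chromosome 16 (Ssal_v3.1) and was counted over 29 exon blocks with 7545 bases. It did not hold nup93 alone. RefSeq, on the same assembly, places the nup93 gene (LOC106573723) at 31783383 to 31820746. A total of 4321 bases (57.3% of the row), from 28 of the blocks (block 2 only in part), lay in that span. RefSeq also places metallothionein A (LOC100136589, synonyms metA and MT-A) inside it, at 31783555 to 31784146, and 3 blocks of the row with 298 bases (3.95% of the row) fell there. No other row counted on the same strand had exon bases in the metallothionein A span. The RefSeq table used gives no strand for its genes. If metallothionein A is read from the plus strand, its fragments and those of nup93 entered 1 count, and the files do not let them be told apart. Levels and fold changes given below for nup93 are those of the whole row, not of the nup93 gene alone. The row's first 2 blocks reached back over bbs2, whose RefSeq span held 2040 of the row's bases (27.0%). Block 2 also ran across the stretch between the bbs2 and nup93 spans, so some of its bases lay in neither.

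**Figure D1:**
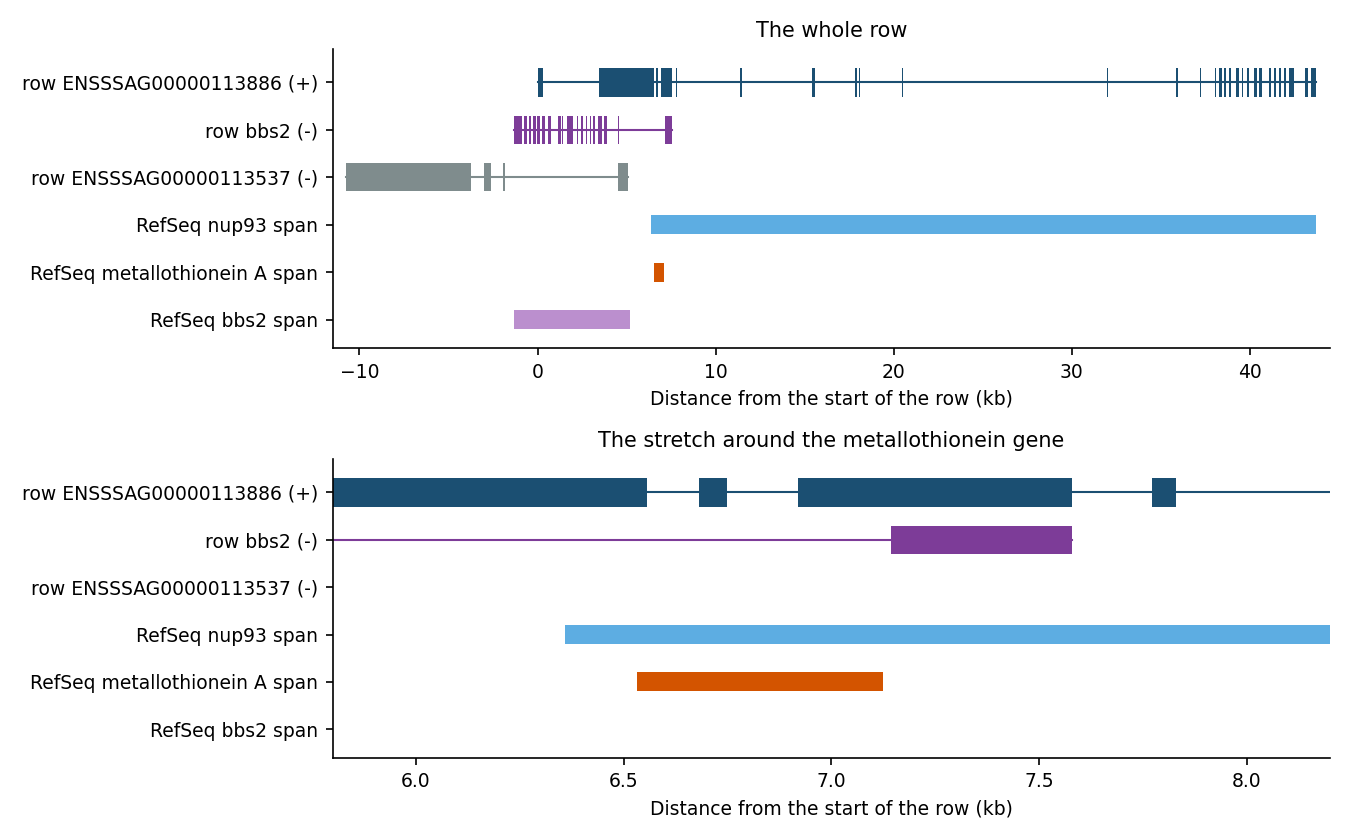
Map of the nup93 row, the rows that overlap it and the RefSeq genes in the same stretch of chromosome 16, as distance in kilobases from the start of the row, with boxes for counted exon blocks. The metallothionein A span lies within the RefSeq nup93 span, near its start, where the nup93 row has 3 blocks.

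A pair of rows overlapped the nup93 span, both on the minus strand. The first was bbs2 (ENSSSAG00000068189, 31775693 to 31784601), which shared 1027 exon bases with the nup93 row on the opposite strand. The other was ENSSSAG00000113537 (31766240 to 31782084), a row without a symbol that shared 557. Libraries were strand-specific and fragments were counted by strand, so that reads of the minus-strand genes were not meant to enter the nup93 count.

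The 72 libraries held 6976621 to 30857656 counted fragments in the DI and 15062129 to 35187924 in the spleen. Levels are given as CPM, the fragments of a row relative to all counted fragments of its library, after TMM scaling within a tissue. The levels of cdh17, alas2 and cdx1b and the sums of cell type markers were instead scaled over all 72 libraries. The enterocyte cadherin cdh17 had a median of 2176 CPM in the DI and 0.913 CPM in the spleen, whereas alas2, the heme synthesis enzyme of red blood cells, had 11.2 and 1887 CPM. ICJ replicate 4 stood apart in the DI, with the lowest cdh17 of the tissue (354 CPM against 878 CPM in the next). FM replicates 3, 4 and 5 of the DI had been counted in another processing folder than the other libraries. Fragments assigned to the nup93 row numbered 501 to 34961 per library in the DI and 1224 to 3539 in the spleen, so counting error was small beside the spread between fish.

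In the DI, the nup93 row was high in FM fish and much lower in nearly all fish fed soybean meal. The 6 FM fish (replicates 1 to 6) had 1940.5, 538, 2286, 552.5, 1833 and 859 CPM. Their mean was 1335 ± 774 CPM (SD, n = 6), and replicates 1, 3 and 5 were well above the other 3. The 6 SBM fish had 96.1, 45.4, 130.2, 119, 84.4 and 63.3 CPM, a mean of 89.7 ± 32.3 CPM (SD, n = 6). The highest SBM fish was thus far below the lowest FM fish. The fitted log2 fold change of SBM against FM was -3.90 (standard error 0.70), or 14.9-fold lower.

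The W. anomalus diets had levels like those of SBM. IWA fish had 64.5, 88.7, 195, 49.0, 60.5 and 60.3 CPM (mean 86.4 ± 55.0, SD, n = 6). Replicate 3 was the one IWA fish above 100 CPM. AWA fish had 86.0, 75.4, 74.1, 101, 96.0 and 66.3 CPM, with a mean of 83.1 ± 13.5 CPM (SD, n = 6), the narrowest spread of the 6 diets. The log2 fold changes against FM were -3.95 (standard error 0.70) for IWA and -4.01 (standard error 0.71) for AWA. Against SBM, the fitted differences were -0.05 for IWA and -0.11 for AWA on the log2 scale.

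The C. jadinii diets held the fish with the most nup93 counts outside FM. ICJ fish had 54.9, 522, 131, 265, 72.02 and 132 CPM, a mean of 196 ± 176 CPM (SD, n = 6). ICJ replicate 2, at 522 CPM, came just under the lowest FM fish, and the library that stood apart, replicate 4, was the next at 265 CPM. ACJ fish had 89.2, 74.6, 54.7, 1771, 164 and 189 CPM, and their mean of 390.4 ± 678 CPM (SD, n = 6) was set by replicate 4, since the median was 127 CPM. That fish lay within the FM range. The log2 fold changes against FM were -2.77 (standard error 0.67) for ICJ and -1.77 (standard error 0.64) for ACJ. Without ICJ replicate 4 the ICJ value was -2.87, and without ACJ replicate 4 the ACJ value was -3.55.

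All 6 fish were below all 6 FM fish in SBM, ICJ, IWA and AWA, and 5 of 6 were in ACJ. The ICJ separation was narrow, with a highest fish of 522 CPM against a lowest FM fish of 538 CPM. It was not kept on a scale common to both tissues (584 and 563 CPM). Over all 32157 genes tested, 0.305% had all SBM fish below all FM fish, and the shares in the ICJ, ACJ, IWA and AWA diets were 0.196%, 0.0933%, 0.899% and 1.5%. The ACJ share also counts genes with all 6 fish below FM, which nup93 did not meet. No share was computed for 5 of 6 fish. The DI libraries of FM, SBM, IWA and AWA were used to choose the gene, and every comparison here holds FM. The counts are therefore a description, also for ICJ and ACJ. Without the FM libraries of the other folder, SBM had a log2 fold change of -3.59, ICJ one of -2.45, ACJ one of -1.50, IWA one of -3.69 and AWA one of -3.75, so all 5 kept their direction. DI pieces are mixtures of cells, and fewer cells that express a gene cannot be told apart from less RNA per cell.

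**Figure D2:**
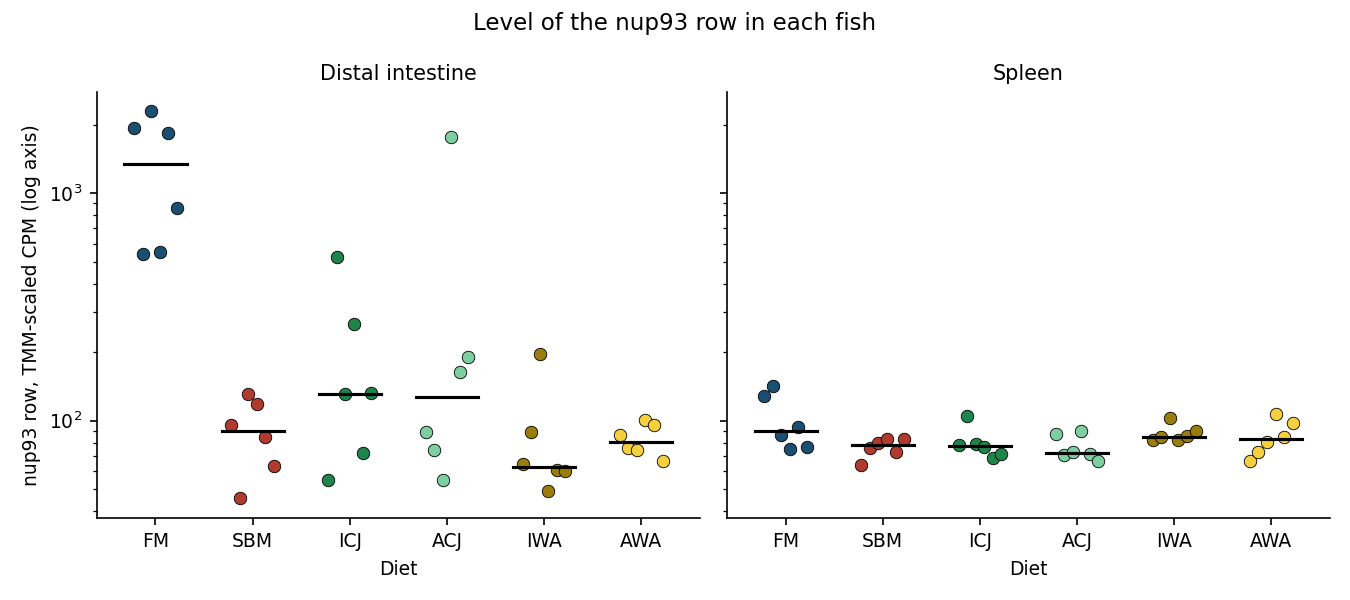
CPM of the nup93 row on a log axis in each of the 36 fish of each tissue by diet, 1 point per fish, with a bar at the diet's median. In the DI the 6 FM fish lie between 538 and 2286 CPM and all other fish but ACJ replicate 4 lie below them, whereas in the spleen all 36 fish lie between 63.6 and 142 CPM.

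Autolyzed and inactivated C. jadinii, the contrast among the DI diets that did not enter the choice of the gene, did not differ in nup93 beyond the spread between fish. ACJ minus ICJ was 0.99 on the log2 scale (standard error 0.63, edgeR adjusted p = 0.972). The direction rested on 1 fish, and the difference was -0.82 without ACJ replicate 4. In the whole comparison edgeR called 0 of 32157 genes, 1643 of which had an unadjusted p under 0.05, and DESeq2 called 14. Inactivated against autolyzed W. anomalus gave an AWA minus IWA difference of -0.06 on the log2 scale, which is given without a test.

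Pooled over the 6 diets, the nup93 row also varied more between fish of one diet in the DI than most genes did. The within-diet standard deviation of its log2 CPM was 1.04 in the DI, against a median of 0.45 over 27415 genes with a mean of at least 1 CPM, and 89.4% of these genes had a lower value. In the spleen it was 0.23, close to the median gene at 0.25. The overlapping gene bbs2 lay at the other end in the DI, at 0.17, with 2.00% of genes lower. The spread of nup93 in the DI was uneven between diets. AWA fish lay between 66.3 and 101 CPM, whereas in ACJ replicate 4 had 1771 CPM and the next fish 189 CPM. The pooled value was not computed without that fish.

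The spleen of the same fish had a narrow range of nup93 levels. FM fish had 128, 142, 86.5, 75.2, 93.5 and 76.9 CPM, a mean of 100.4 ± 28.1 CPM (SD, n = 6). The means of the other diets were 76.2 ± 7.41 CPM in SBM, 79.5 ± 12.9 in ICJ, 76.4 ± 9.79 in ACJ, 87.9 ± 7.93 in IWA and 84.8 ± 15.2 in AWA (SD, n = 6 each). SBM fish lay between 63.6 and 83.2 CPM (median 77.7), ICJ fish between 68.4 and 104 CPM (median 77.3) and ACJ fish between 66.6 and 90.0 CPM (median 71.97). IWA fish lay between 82.1 and 103 CPM (median 84.95) and AWA fish between 66.6 and 107 CPM (median 82.6). Every diet overlapped FM, whose replicates 1 and 2 were higher than all fish of the other diets.

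None of the 5 spleen comparisons with FM passed the test for nup93. The log2 fold change in SBM was -0.40 (adjusted p = 0.489), that in ICJ was -0.34 (0.759), that in ACJ was -0.39 (0.599), that in IWA was -0.19 (0.879) and that in AWA was -0.24 (0.603), with standard errors of 0.13 (edgeR, Benjamini-Hochberg over 32144 genes). All 5 values were below 0, but the comparisons share the FM fish. Unadjusted, edgeR gave a p of 0.0056 in SBM, 0.0169 in ICJ, 0.00600 in ACJ, 0.164 in IWA and 0.0783 in AWA. edgeR called 0 genes in each of the 5 comparisons, with 1914 to 2958 genes at an unadjusted p under 0.05, and DESeq2 called 14, 9, 5, 4 and 25 genes in the same order.

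Between the tissues, the nup93 row was 3.98 higher in the DI than in the spleen of FM fish on the log2 scale, 0.52 higher in SBM (standard error 0.47), 0.20 in IWA and 0.19 in AWA. The DI libraries of these 4 diets entered the choice of the gene, so these values and the mean over the 6 diets (1.51, or 1.13 with the fish as a block) are given without a test. Only ICJ and ACJ could be tested.

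In ICJ the row was higher in the DI by 1.58 on the log2 scale (edgeR adjusted p = 0.0033), or by 1.15 with the fish as a block (adjusted p = 0.0143). The call was lost without ICJ replicate 2 of the DI (0.998, adjusted p = 0.0575). In ACJ it was higher by 2.59 (adjusted p = 6.6e-06), and 1 fish set this size. Without ACJ replicate 4 of the DI the difference was 0.796 (adjusted p = 0.0473). With the fish as a block it was 1.22 (adjusted p = 0.0122), and 0.706 when that fish was left out of both tissues (adjusted p = 0.0817). In these diets 34.7% and 32.6% of all 35067 genes tested were called higher in the DI, and 29.4% and 32.6% lower, so that a call in this comparison was common.

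On a scale common to both tissues, DI FM came first of the 12 groups with a median of 1469.7 CPM. DI ICJ (149.5), DI ACJ (138), DI SBM (98.4) and DI AWA (86.7) followed, and then spleen FM (81.7), IWA (78.8), AWA (74.9), SBM (71.6) and ICJ (71.5), DI IWA (67.2) and spleen ACJ (66.6). Each group's range overlapped that of the next in the order. Even DI FM, with a lowest fish of 563 CPM, overlapped DI ICJ, with a highest fish of 584 CPM on this scale.

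No change was called in the minus-strand rows that overlap the nup93 span. Metallothionein A, which lies in the same span, had no row of its own, so its level was not measured by itself. Whether its fragments entered the nup93 count depends on its strand, which is not given. bbs2 lay at 7.77 to 14.4 CPM over the 36 DI libraries. Its log2 fold changes against FM ran from -0.11 to 0.05 in the DI and from -0.09 to -0.003 in the spleen, and none was called (edgeR, adjusted p of 0.766 or more in both tissues). Of all genes, 0.0187% were called in either direction in SBM, 0.0466% in ICJ, 0.00311% in ACJ, 0.308% in IWA and 3.41% in AWA against FM in the DI, and 0% in the spleen. ENSSSAG00000113537 had 2 to 19 counts per DI library, and its values ran from -0.41 to 0.28 in the DI and from -0.22 to 0.17 in the spleen, also with no call. Its standard errors in the DI were at most 0.39.

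In the nearest rows on either side no change was called either. Before the nup93 row lie LOC106573727, LOC106573726 and phaf1, and after it LOC106573722, and none was called in any comparison with FM. Their log2 fold changes in the DI ran from -0.84 to 0.02, from -0.56 to 0.32, from 0.07 to 0.23 and from 0.06 to 0.30, respectively. The standard errors were at most 0.43, 0.36, 0.18 and 0.17 in the same order. A moderate change in LOC106573727 or LOC106573726 could thus have been missed. ENSSSAG00000116440 and LOC106573793, which also follow the nup93 row, had too few counts to be tested. Between tissues, bbs2 differed by -0.08 on the log2 scale (DI minus spleen, edgeR adjusted p = 0.0515, or 0.0497 with the fish as a block) and ENSSSAG00000113537 by -1.12 (adjusted p = 1.70e-12), where 42.2% of all genes were called higher and 44.2% lower in the DI.

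**Figure D3:**
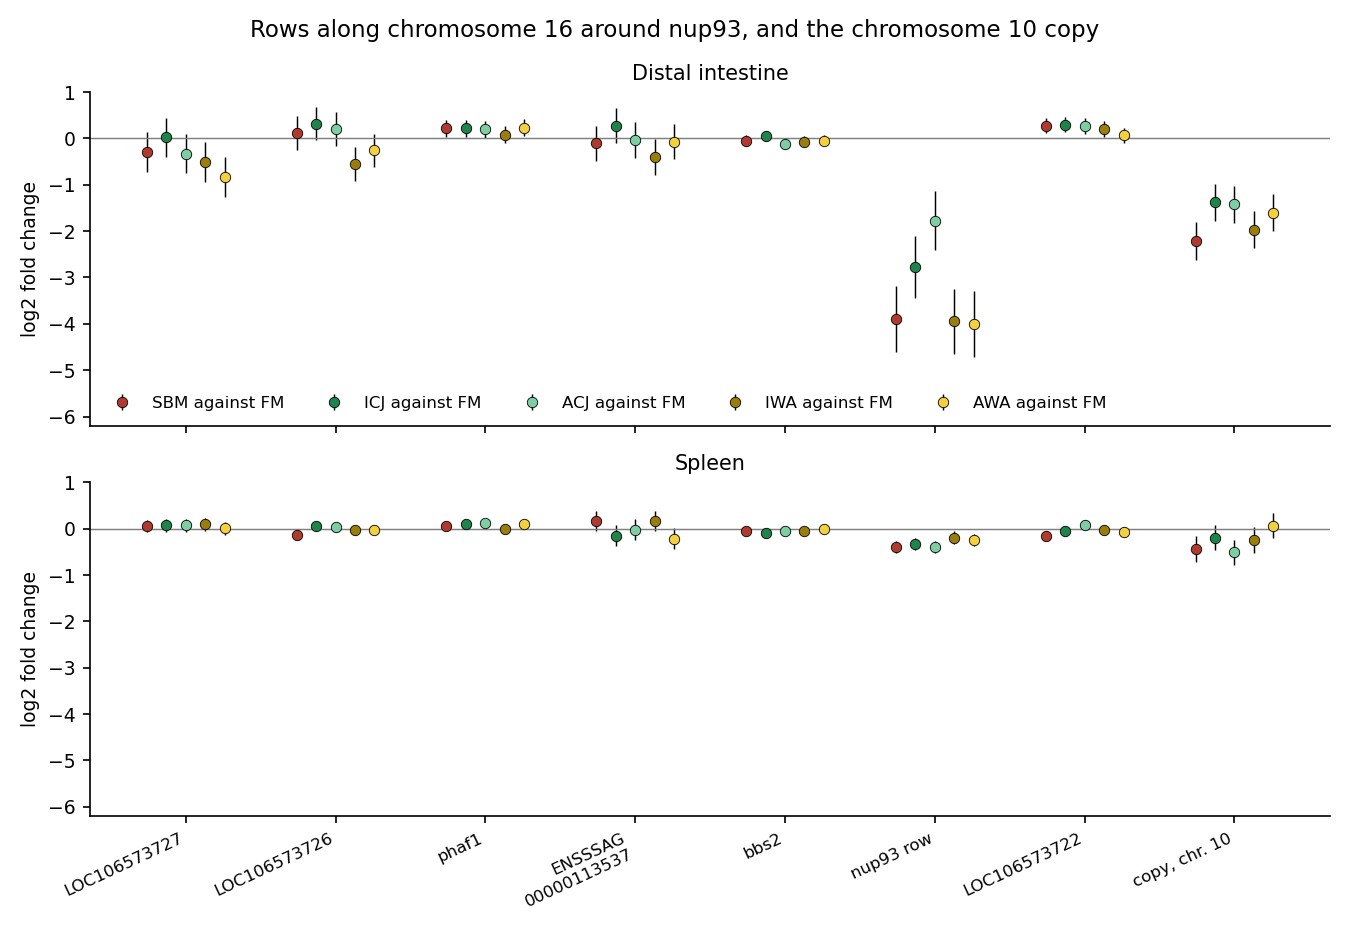
Log2 fold changes against FM in DI and spleen for the nup93 row, its overlapping and neighbouring rows and the copy on chromosome 10, 1 point per diet, with bars of 1 standard error. The nup93 row lies between -4.01 and -1.77 in the DI, its copy between -2.21 and -1.38, and the other rows between -0.84 and 0.32.

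The copy of nup93 on chromosome 10 (LOC100195319, ENSSSAG00000068268, 87106954 to 87147129, minus strand) was also lower in the DI of soybean fish. It was counted over 28 blocks with 4396 bases, of which 3314 (75.4%) lay in the RefSeq span of LOC100195319. The span of another gene, LOC123724457, held 813 bases (18.5%). That of another metallothionein, mt2 (synonym MT-B), held 263 bases (5.98%) from 3 blocks, and the mt2 and LOC123724457 spans overlap. Their strands are likewise not given. Levels and fold changes of the copy are those of its whole row, not of a nup93 gene alone. The 6 FM fish had 904, 338, 1083, 198, 503 and 482 CPM (mean 585 ± 340.0, SD, n = 6). SBM fish lay between 109 and 144 CPM (mean 126 ± 12.2, SD, n = 6), all below the FM fish. ICJ fish lay between 69.0 and 364 CPM (median 232), ACJ fish between 100.2 and 609.9 CPM (median 151), IWA fish between 61.1 and 205 CPM (median 145) and AWA fish between 143 and 276 CPM (median 182). These 4 diets each overlapped the FM range, whose lowest fish had 198 CPM. The log2 fold change of SBM against FM was -2.21 (standard error 0.41), given without a test because its outcome was known when the copy was chosen for this description. The copy was lower than in FM by -1.97 in IWA (edgeR adjusted p = 0.0364) and by -1.61 in AWA (adjusted p = 0.0267). The tests of the copy against FM all reuse the FM fish of the SBM comparison. Their p-values are thus not independent of that known outcome. Among all genes, 0.0155% were called lower in SBM, 0.149% in IWA and 1.28% in AWA. ICJ (-1.38, adjusted p = 0.144) and ACJ (-1.42, adjusted p = 0.540) were not called, and 0.028% and 0.00311% of all genes were called lower there.

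Both calls lay near the threshold. Without the 3 FM libraries of the other folder the log2 fold changes stayed at -2.16 in SBM, -1.95 in IWA and -1.60 in AWA, while the IWA and AWA calls were lost (adjusted p = 0.113 and 0.0779). ACJ was called without its replicate 4 (-2.07, adjusted p = 0.0196). In ACJ, replicate 4 was the highest fish of both rows, with 609.9 CPM in the copy. In the spleen the copy's log2 fold changes ran from -0.51 to 0.07 and none was called.

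**Figure D4:**
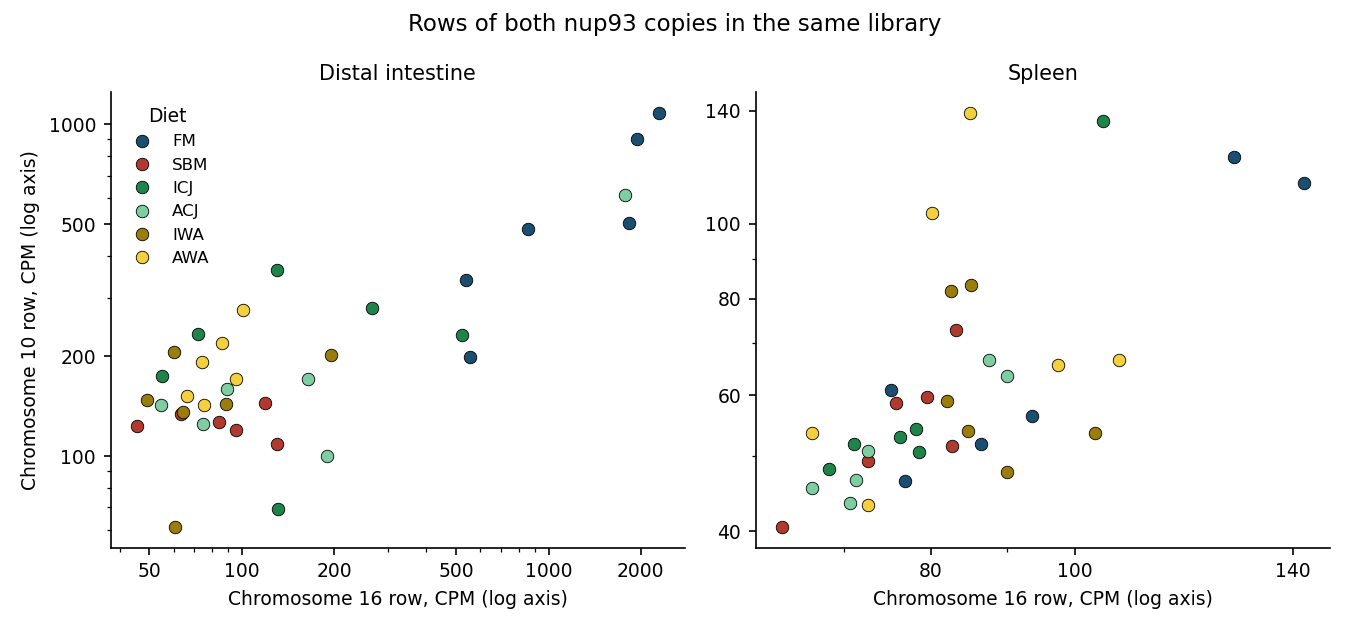
CPM of the nup93 row against that of its copy on chromosome 10, both on log axes, 1 point per fish, by diet, for DI and spleen. In the DI, 5 of the 6 FM fish and ACJ replicate 4 are high on both axes, FM replicate 4 (552.5 and 198 CPM) lies beside ICJ replicate 2, and in the spleen the ranges of the 6 diets overlap.

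The row and its copy varied together in the FM intestines and in the spleens, but not clearly in the intestines of soybean fish. Of 7 relations computed between log2 CPM values over fish, 3 concerned the copy. Over the 6 FM fish of the DI, Pearson's r was 0.889 (exact permutation p = 0.0056, Benjamini-Hochberg adjusted p = 0.0130) and Spearman's rho was 0.943 (adjusted p = 0.0389), and r was 0.733 without the 2 fish farthest from the median. Over the 30 DI fish of the soybean diets, r was 0.550 (permutation p = 0.00289, adjusted p = 0.0101) but rho was 0.287 (adjusted p = 0.220). Within diets r was 0.538. Across diets r fell to 0.201 without 2 fish, so its size rested on those. Over the 36 spleens, r was 0.661 (permutation, adjusted p = 0.00021) and rho was 0.677 (adjusted p = 0.00014). It held without 2 fish (0.520) and within diets (0.649). Copies kept from a genome duplication can share near-identical stretches, and how far such reads bear on either count was not tested. Both rows also held exon bases in a metallothionein span (298 and 263), and the part of these in the joint variation was not tested.

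The tests run detected no relation between the level of the nup93 row in the DI of a fish and that in its spleen. Over the 6 FM fish r was 0.0134 and rho was -0.0286 (exact permutation p = 0.950 and 1, the same after adjustment). Over the 30 soybean fish r was 0.248 (permutation p = 0.189, adjusted p = 0.264) and rho was 0.0652 (adjusted p = 1). r was -0.0462 without 2 fish and 0.445 within diets, and the value within diets was not tested.

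The DI libraries also differed in slc15a1, the peptide transporter of the intestinal brush border, which ranged from 0.14 to 313 CPM among FM fish. Over the FM fish its r with nup93 was 0.119 (exact permutation p = 0.856, adjusted p = 0.950). Over the 30 soybean fish r was 0.433 (permutation p = 0.0115, adjusted p = 0.0201) and rho was 0.467 (adjusted p = 0.0322), with r of 0.390 without 2 fish and 0.401 within diets. Many slc15a1 values lay near the floor, however. It had no count in 5 of the 36 DI libraries, and its DI median was 0.54 CPM (scaled over all 72 libraries). How far such low counts bear on the relation was not tested. The high-nup93 FM fish, replicates 1, 3 and 5, had 31.97, 0.41 and 313 CPM of slc15a1.

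Markers of the cell types in the DI were compared in the same way. The 3 of 6 enterocyte markers matched to rows summed to 963 to 2764 CPM in FM, 1355 to 2738 in SBM, 356 to 2745 in ICJ, 1489 to 2780 in ACJ, 1386 to 2920 in IWA and 2324 to 2828 in AWA. The lowest ICJ value is that of replicate 4, the library that stood apart, where cdx1b was at 1.69 CPM against 69.8 CPM or more in the others. The 4 T cell markers summed to 59.96 to 150.3 CPM in FM, 33.01 to 180.4 in SBM, 29.98 to 189.6 in ICJ, 63.8 to 113.5 in ACJ, 33.7 to 63.01 in IWA and 39.3 to 98.7 in AWA. All diets overlapped FM in both sums, but their medians differed. The median T cell sum was 85.3 CPM in FM, 71.5 in SBM, 88.4 in ICJ, 85.2 in ACJ, 42.2 in IWA and 58.0 in AWA. The median enterocyte sum was 1531 CPM in FM, 2233 in SBM, 1744 in ICJ, 2078 in ACJ, 2483 in IWA and 2686 in AWA. No marker of enterocytes, T cells, proliferating cells, goblet cells, smooth muscle, red blood cells or B cells was called in a DI comparison with FM, where between 0.00311% (ACJ) and 3.41% (AWA) of all genes were called. The part of cell makeup in the nup93 values was not tested.

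Per kilobase of counted exons, the nup93 row in the FM fish stood among the highest rows of the DI. Its mean of 177 CPM per kilobase was 325th of 32157 genes. In SBM it was 11.9 (4777th), in ICJ 26.0 (2365th), in ACJ 51.7 (1154th), in IWA 11.4 (4807th) and in AWA 11.01 (5228th). In the spleen it lay between 10.1 and 13.3 CPM per kilobase. These levels are averages over the whole row, including its blocks in the metallothionein A span and those over bbs2.

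The other nuclear pore genes gave a reference for the level of the nup93 row. Of the 32 other pore subunits on the list, 12 were matched to rows by symbol and tested. The highest of them in the DI of FM fish, sec13 of the Y complex, had 58.1 CPM per kilobase. The median of the 12 was 4.87, and all 12 lay below the nup93 row. In SBM, IWA and AWA, 3 of the 12 lay above it. Against FM in the DI, 0 of 12 were called in SBM, ICJ, ACJ and IWA, where 0.0187%, 0.0466%, 0.00311% and 0.308% of all genes were called, so a count of 0 was close to the background. In AWA 1 of 12 was called, with 3.41% of all genes called in either direction. That gene was seh1l, a Y complex subunit, with a log2 fold change of -0.53 (standard error 0.15, edgeR adjusted p = 0.0417). Without the FM libraries of the other folder its value was -0.54 and the call was lost (adjusted p = 0.0996).

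The median log2 fold changes of the 12 in the DI were 0.12 in SBM, 0.07 in ICJ, 0.05 in ACJ, 0.33 in IWA and 0.21 in AWA, beside medians over all genes of -0.03, 0.004, -0.02, -0.007 and -0.08. Values were above 0 for 10, 7, 9, 10 and 10 of the 12. nup205, an inner ring scaffold like nup93 and the one other inner ring gene matched, ran from -0.02 to 0.43 in the DI. ndc1, which anchors the pore in the membrane, ran from -0.18 to 0.45, and the central channel genes nup62 and nup54 from 0.07 to 0.33 and from 0.08 to 0.22. In the spleen 0 of 12 were called, where 0 of 32144 genes were called in each comparison, so this count says nothing about the list. The medians of the 12 there ran from -0.15 to -0.10.

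**Figure D5:**
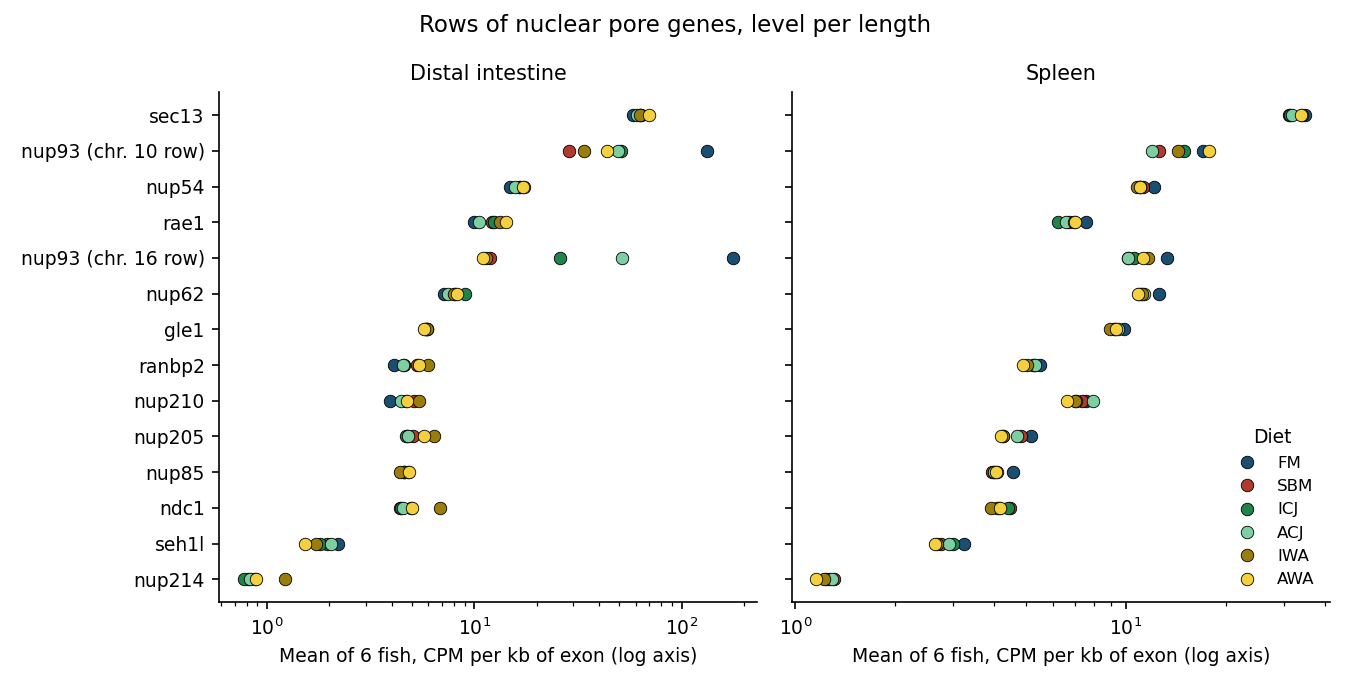
CPM per kilobase of counted exons, on a log axis, for the nup93 row, its copy on chromosome 10 and the 12 other nuclear pore genes in each diet of each tissue, as means of 6 fish. The nup93 row lies above all 12 in the DI of FM fish, at 177, and below 1 to 3 of them in the other groups.

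Genes of zinc handling were added as a list after the metallothionein A span had been seen in the annotation. The list gave 9 matched rows: the metal-responsive transcription factor mtf1, the exporters slc30a1, slc30a5 and slc30a9, and the importers slc39a6, slc39a7, slc39a10, slc39a13 and slc39a14. None of the 9 was called against FM in either tissue, where at most 3.41% of all genes were called (AWA in the DI), so this count says little about the list. In the DI, mtf1 ran from 0.11 to 0.34 on the log2 scale and the zinc exporter slc30a1 from -0.28 to -0.07. The lowest value was that of slc39a14, which ran from -0.84 to -0.14 with an edgeR adjusted p of 0.196 or more.

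The genes whose log2 CPM was most like that of nup93 over the 36 DI libraries were LOC106572715 (Pearson's r of 0.869), hmgb3 (0.868), ENSSSAG00000088831 (0.868), hmgb3a (0.861) and LOC106568402 (0.828). These correlations are a description, since the libraries share the difference between FM and soybean diets. Within diets they were between 0.754 and 0.820. hmgb3, a gene of the high mobility group box chromatin proteins, had 62.8 ± 18.6 CPM in FM and 23.0 ± 10.97 CPM in SBM (SD, n = 6). The copy on chromosome 10 came 16th of 27415 genes (0.798) and bbs2 6905th (0.229). Over the 36 spleens the 5 nearest genes were others, LOC106564435 (0.730), ENSSSAG00000121536 (0.729), LOC106567228 (0.727), LOC106564822 (0.722) and rimoc1 (0.722), and the copy came 107th.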

How the data were processed

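Total RNA of DI and spleen was made into TruSeq stranded mRNA libraries. Per the labels, the file headers and the study's methods, the authors trimmed reads with Trim Galore and aligned them to Ssal_v3.1 with STAR and RSEM. They deposited counts of paired fragments per gene from featureCounts (1.4.6 in the labels, 1.5.1 in the headers), counted on the reverse strand. No option for multi-mapping fragments was set, so these were probably left out, but this is not stated. Nothing was normalized before deposit. Genes were named by matching rows to RefSeq genes of the same assembly with at least 50% reciprocal overlap of their spans (34983 of 69389 rows).

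Counts were analysed with edgeR 4.0.16 (R 4.3.3), using filterByExpr, TMM and robust quasi-likelihood fits over the 36 libraries of a tissue with diet as the factor, or over all 72 libraries for tissue, with Benjamini-Hochberg adjustment over all genes tested and a threshold of 0.05. The fit within a tissue was tested on simulated counts for AWA against FM only, and the fits between tissues were not simulated. The labels do not give tanks, so p-values take fish as independent. Same-numbered fish gave both tissues, and their deviations correlated in all 6 diets (r between 0.03 and 0.46), so a fit with the fish as a block is given beside it. Correlations used log2 CPM with a prior count of 2 and permutation tests (100000 resamples, exact for 6 fish). Alternatives were DESeq2 1.42.0, RLE size factors, no filter, only the libraries compared, a replicate block, counts summed over inferred tanks, and leaving out each library. Leaving out the FM libraries of the other folder, and single ICJ or ACJ libraries in the tissue comparison, was chosen after seeing the data. The gene, the gene lists and the named genes (overlapping rows, 3 neighbours a side, the other copy, pore genes, and the 5 most alike genes per tissue) were chosen with earlier results of these data known. Zinc genes were added later still.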

Additional observations from a re-analysis of the deposited data

Results flagged for a closer look

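Of 48 groups of 6 fish examined for the 4 rows of the nup93 locus and its copy, 6 held a single fish apart from the others by Dixon's test. This test divides the gap to the next fish by the range. Chance gives such a fish in about 1 group of 20 if values are normally distributed. The ratios were taken on CPM rather than on a log scale, and all 6 flagged fish were the highest of their groups. In nup93, ACJ replicate 4 of the DI had 1771 CPM (gap ratio 0.921), IWA replicate 3 of the DI had 195.3 CPM (0.728) and ICJ replicate 2 of the spleen had 104.5 CPM (0.719). In the copy on chromosome 10, the same ACJ fish had 609.9 CPM in the DI (0.862) and the same ICJ fish had 135.9 CPM in the spleen (0.931). ENSSSAG00000113537 had 0.858 CPM in ACJ replicate 6 of the DI (0.681), a row with few counts.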

How the results depend on the processing

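Of 4334 values recomputed under another setting, 4270 kept their side of the threshold or moved by less than the spread between fish, and 64 did not. For nup93 in the DI all 5 diets stayed below FM. Leaving out 1 library gave log2 fold changes of -4.04 to -3.64 for SBM, -3.35 to -2.50 for ICJ, -3.55 to -1.54 for ACJ, -4.41 to -3.75 for IWA and -4.20 to -3.81 for AWA, with the -3.55 of ACJ reached without ACJ replicate 4. The other settings gave -4.02 to -3.59, -2.93 to -2.45, -2.40 to -1.50, -4.05 to -3.69 and -4.08 to -3.75. In the spleen no setting called nup93.

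The calls of the copy on chromosome 10 were lost while its log2 fold changes stayed close to -1.97 in IWA and -1.61 in AWA. In IWA the call was lost without a filter (-1.98, adjusted p = 0.0557) and without any of 8 single libraries (FM replicates 1, 3, 5 and 6, IWA replicates 1, 2, 4 and 6, -2.12 to -1.72, adjusted p of 0.0563 to 0.0928). In AWA it was lost without FM replicate 1 or AWA replicates 1, 3, 5 or 6 (-1.68 to -1.48, 0.0501 to 0.0668). DESeq2 called it in ICJ too (adjusted p = 0.0496).

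Of the pore list, IWA gave 1 call with DESeq2, and 0 to 1 when 1 library was left out (1 without ICJ replicate 4). AWA gave 0 without a filter, 2 with counts summed over inferred tanks and 0 without the FM libraries of the other folder. It gave 0 to 1 when 1 library was left out, and 0 without FM replicates 1, 4, 5 or 6 or AWA replicates 1, 3, 4 or 5. Between tissues, nup93 in ICJ ranged from 0.998 to 1.78 and in ACJ from 0.796 to 2.87 when 1 library was left out, and ACJ gave 0.706 with the fish as a block and without ACJ replicate 4. These omissions were chosen after seeing the data. bbs2 was called without a filter (-0.17, adjusted p = 0.00027) and with the fish as a block (-0.0892, adjusted p = 0.0497).

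Same-numbered fish of different diets were different fish. Their deviations correlated between -0.38 and 0.48, with medians per comparison of -0.16 to 0.13. For DI and spleen of the same fish, the medians per diet were 0.18 to 0.35. The fit with the replicate number as a block gave nup93 values of -4.02, -2.93, -2.40, -4.05 and -4.08 in the DI, and the copy was then not called in IWA (-1.96, adjusted p = 0.0625). Over all genes edgeR called 6, 15, 1, 99 and 1097 in SBM, ICJ, ACJ, IWA and AWA, the block fit 5, 0, 1, 5 and 566, and DESeq2 163, 339, 47, 1030 and 2637. The cause of these differences was not tested. Depth limited ENSSSAG00000113537, with 2 to 19 counts per DI library.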
